A study of Mus musculus with 48 samples.

Results

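Livers of 16 mice on high energy diets were compared, 10 mice whose diet held 5% protein and 6 whose diet held 14%, out of 48 mice in the series. The mice were chosen by their diet labels alone, and the comparison asks which liver genes step at severe protein restriction. Diets are written as percent protein, carbohydrate and fat. The 5% group held 4 mice on 5/75/20, 4 on 5/48/48 and 2 on 5/20/75, and the 14% group held 4 on 14/29/57 and 2 on 14/57/29. All 16 were fed freely on their diet from 3 weeks of age and were killed at 15 months, and the labels name no genetic change or drug in any group. Males and females entered the study with 1 mouse taken from a cage. The labels give neither the sex of a mouse nor the strain. The mean carbohydrate minus fat share was 11 points at 5% protein and -9.33 at 14%, so that share was held as a covariate in the fits of the report. The diets also trade protein against both other nutrients, and lower protein cannot be told apart from more carbohydrate and fat together.

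The liver breaks down amino acids that exceed need, sends their nitrogen into urea and makes most plasma proteins from the rest. When an essential amino acid runs short, uncharged transfer RNA activates the kinase GCN2, which slows translation in general and favours that of the transcription factor ATF4. ATF4 pairs with C/EBP factors at target genes for amino acid synthesis, uptake and stress defence, and the liver hormone Fgf21 is among them. Fgf21 is known to carry the signal of dietary protein restriction from the liver to the brain and to fat.

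Each liver was read on 1 Affymetrix array, and all levels below are log2 expression values as deposited, on which 1 unit is a doubling. The number of arrays limits the precision, since an array gives no count of molecules. For 60 pairs of arrays with the same protein share the median r was 0.974, and for 60 pairs with different shares it was 0.972, and the closest pair reached 0.981. The Y-linked genes lay above Xist on 6 of 10 arrays at 5% protein and 3 of 6 at 14%, with a two-sided p of 1.0 by Fisher's exact test. The interquartile range of an array, the width of the middle of all its values, ran from 3.22 to 3.63 with a median of 3.51 at 5% protein and from 3.01 to 3.45 with a median of 3.27 at 14%. It was wider at 5% by 0.23 (exact permutation test, two-sided p = 0.0155, n = 10 and 6). The 2 protein groups did not overlap in this range once arrays were split by sex marker. With Y-linked genes above Xist it was 3.22 to 3.54 against 3.01 to 3.17, and with Xist above it was 3.50 to 3.63 against 3.37 to 3.45. The array range therefore moved with protein in these mice, and a second fit below holds it as a covariate.

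**Figure D1:**
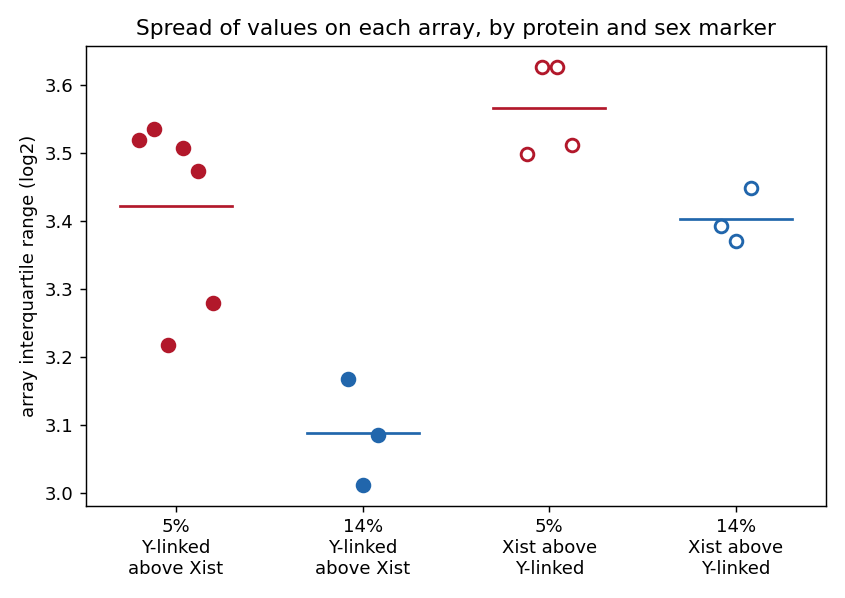
Interquartile range of each of the 16 arrays (log2 units), with 1 point per mouse and a line at each mean, split by protein share and by which sex marker was higher. Within either marker class the 5% arrays (red) lie above the 14% arrays (blue).

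At 5% protein 42 of 16926 genes tested were higher than at 14% (0.248% of them) and 34 were lower (0.201%), at an adjusted p under 0.05 (limma with Benjamini-Hochberg adjustment). Before adjustment 3020 genes had a p under 0.05. The 42 genes that rose did so by 1.31-fold to 7.82-fold, and the 34 that fell did so by 1.30-fold to 11.2-fold. Every mouse at 5% lay beyond every mouse at 14% for 24 of the 76 genes, against 42 of all 16926 (0.248%). The 76 genes were called in these same mice, so a higher share among them follows from that choice. After quantile normalization between arrays 38 genes were higher and 50 lower (43.2% higher against 55.3%). The count leaned on single mice. It was 241 without the 14/57/29 mouse 138 and 141 without the 5/48/48 mouse 434, and 39 without 14/57/29 mouse 438, 40 without 5/20/75 mouse 130, 47 without 14/29/57 mouse 402 and 50 without 5/48/48 mouse 135. In all 16 of these fits 34 of the 76 genes passed, and none of the 76 changed sign in any of them.

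One mouse at 5% protein stood nearer the 14% group than its companions. The 5/75/20 mouse 127 was the 5% mouse closest to the 14% group for 36 of the 76 genes and lay past the midpoint of the 2 group means for 33 of them. The next in that count was the 5/75/20 mouse 160, past the midpoint for 21. In mouse 127 Orm1 stood at 9.65, Nnmt at 6.68, Acpp at 4.62 and Psat1 at 1.65, all near their 14% levels, whereas Fgf21 at 8.04 and Lepr at 7.93 stayed above every 14% mouse. Without mouse 127 the comparison called 101 genes, 75 of the 76 among them.

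Fgf21 and the leptin receptor gene Lepr gave the 2 largest rises of the genes that passed. Fgf21, the liver hormone of protein restriction, ran from 8.04 to 10.01 with a median of 8.41 in the 10 mice at 5% protein and from 4.40 to 6.74 with a median of 6.34 in the 6 at 14%. No mouse of one group reached the other, and all 3 diets at 5% lay together, with means of 8.58 on 5/75/20, 8.88 on 5/48/48 and 8.30 on 5/20/75. The fitted difference was 2.65 ± 0.34 (SE) on the log2 scale, a 6.29-fold rise (limma adjusted p = 0.00145, n = 10 and 6). The rise was 3.09 among arrays with Y-linked genes above Xist and 2.09 among those with Xist above. The co-receptor Klb and the receptor Fgfr4, through which FGF hormones act on hepatocytes, differed by 0.30 and -0.28, and neither passed (adjusted p = 0.175 and 0.213).

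Lepr encodes the receptor for the adipocyte hormone leptin, and the liver also makes its soluble form that circulates bound to leptin. Its level ran from 6.91 to 9.19 with a median of 8.42 at 5% and from 4.04 to 6.63 with a median of 5.37 at 14%, again with no overlap. It rose by 2.97 ± 0.37 (SE), or 7.82-fold (limma adjusted p = 0.00145, n = 10 and 6). Without 14/57/29 mouse 438, both Fgf21 and Lepr stayed past the threshold.

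**Figure D2:**
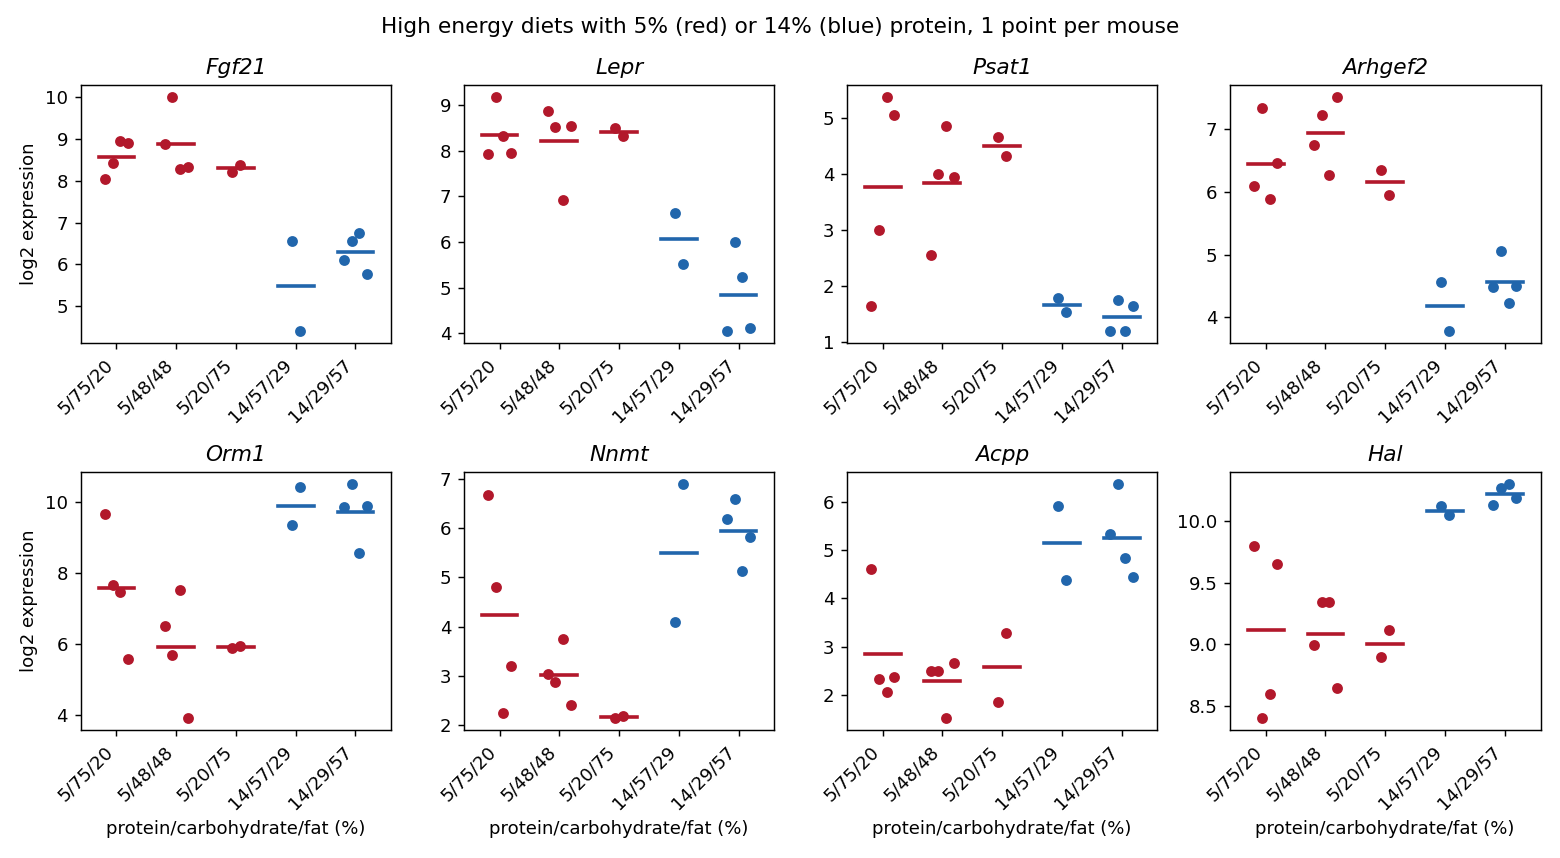
Log2 expression of 8 genes in each of the 16 mice, by diet (percent protein, carbohydrate and fat), with 1 point per mouse and a line at the mean of a diet. Fgf21, Lepr, Arhgef2 and Hal do not overlap between 5% (red) and 14% (blue) protein; in Psat1, Orm1, Nnmt and Acpp mouse 127 on 5/75/20 is the 5% mouse closest to or among the 14% values.

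Among genes of the ATF4 response the calls were all rises. Of 31 tested genes on the list for this response 6 rose (Fgf21, Psat1, Mthfd2, Nupr1, Atf5 and Slc3a2) and 0 fell, and the median difference over the 31 was 0.52 against 0.01 over all genes tested. Of 10 genes for amino acid synthesis Psat1 and Mthfd2 rose and 0 fell, with a median of 0.66. Psat1, which makes serine from a glycolytic intermediate, ran from 1.65 to 5.38 with a median of 4.16 at 5% and from 1.20 to 1.79 with a median of 1.59 at 14%. Mouse 127 alone fell among the 14% mice. The 14% values lay near 1.17, the mean a gene had to exceed to be tested, and around the array medians of 1.62 to 1.73. The size of the Psat1 rise is therefore uncertain. The fitted rise was 2.50 ± 0.47 (SE; limma adjusted p = 0.0192, n = 10 and 6). Mthfd2, a mitochondrial folate enzyme, rose by 1.5 ± 0.31, and Atf5, a transcription factor related to ATF4, rose by 1.04 ± 0.13 with no overlap between 8.86 to 9.67 at 5% and 7.77 to 8.55 at 14% (adjusted p = 0.0408 and 0.00145). Atf4 itself, which is known to be controlled mainly through its translation, stood at 6.71 ± 0.25 (SD, n = 10) and 6.38 ± 0.21 (SD, n = 6) and did not pass (adjusted p = 0.235).

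Asns, which makes asparagine and is a classic target of amino acid shortage, was spread widely. It ran from 5.30 to 8.09 with a median of 6.62 at 5% and from 2.10 to 6.16 with a median of 4.34 at 14%, and the groups overlapped. The difference of 2.31 ± 0.63 did not pass (adjusted p = 0.0962), but it did with the sex marker in the fit (2.29, adjusted p = 0.00422) and with the array interquartile range in the fit (4.28 ± 0.47, adjusted p = 0.000467). Asns also differed between the sex marker classes. With Y-linked genes above Xist its mean was 7.30 at 5% and 5.90 at 14%, and with Xist above it was 5.84 and 2.70. The fit with the array range alone sets groups of unlike sex markers against each other (below). Its value of 4.28 therefore cannot be read as a protein difference alone. The Asns difference with both terms in the fit was 3.47 (limma adjusted p = 0.00513). Of 20 amino acid transporters tested 2 rose and 0 fell. Slc3a2, the heavy chain shared by several exchangers, rose by 0.96 ± 0.16, and Slc7a7, one of the light chains that pairs with it to export cationic amino acids, rose by 1.35 ± 0.21 (adjusted p = 0.00781 and 0.00525).

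The composite element that C/EBP and ATF4 bind was searched for as TGATGNAA on both strands, in the window from 250 bases before to 50 bases after each gene's start. Among the 42 genes that rose 37 had such a window and 7 held the element (18.9%): Arhgef2, Chchd10, Fgf21, Igsf23, Nupr1, Pck2 and Slc7a7. Among the 34 that fell 27 had a window and 1 held it, Tiam2 (3.70%). Of 13129 tested genes with a window 420 held it (3.20%), and so did 3.97% of all 32851 windows. Genes with several starts have more windows in which to hold it (5 for Slc7a7 and 4 for Arhgef2). A match is a run of letters and not a shown binding site, and the element was chosen with the rise of ATF4 targets known. The stretches below show it in capitals in 4 genes that rose and have a single window, and in Asns for comparison. They are RefSeq sequences of build GRCm38.p6, each 110 bases, read 5′ to 3′ on the strand of the gene. Those of Fgf21 (chr7:45615531-45615640, minus strand), Nupr1 (chr7:126625511-126625620, minus strand), Chchd10 (chr10:75932980-75933089, plus strand) and Pck2 (chr14:55540116-55540225, plus strand) span -150 to -41 from the start, and that of Asns (chr6:7693210-7693319, minus strand) spans -110 to -1.
Fgf21: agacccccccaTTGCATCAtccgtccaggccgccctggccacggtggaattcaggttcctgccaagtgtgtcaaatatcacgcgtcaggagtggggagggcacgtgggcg
Nupr1: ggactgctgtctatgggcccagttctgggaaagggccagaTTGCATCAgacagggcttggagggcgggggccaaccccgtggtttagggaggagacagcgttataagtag
Chchd10: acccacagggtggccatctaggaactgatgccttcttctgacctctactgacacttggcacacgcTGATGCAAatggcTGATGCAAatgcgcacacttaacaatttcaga
Pck2: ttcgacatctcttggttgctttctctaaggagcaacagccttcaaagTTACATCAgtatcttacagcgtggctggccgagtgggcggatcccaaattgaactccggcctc
Asns: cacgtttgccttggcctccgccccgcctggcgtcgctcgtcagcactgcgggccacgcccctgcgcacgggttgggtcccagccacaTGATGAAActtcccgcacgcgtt
The element begins 139 bases before the start in Fgf21, 110 in Nupr1, 103 in Pck2 and 23 in Asns, and Chchd10 holds it at both 85 and 72. Chchd10, a small protein between the mitochondrial membranes, rose by 0.44 ± 0.08 and Pck2, the mitochondrial enzyme that makes phosphoenolpyruvate, by 1.01 ± 0.14, each with no overlap between groups (limma adjusted p = 0.0131 and 0.00317). Nupr1, a stress-induced chromatin protein, rose by 1.18 ± 0.23 (adjusted p = 0.0237). Chchd10, like Nupr1 and Pck2 in this place, was singled out after its values and its sequence were seen.

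Other large rises fell on genes outside these lists. Arhgef2, a guanine nucleotide exchange factor that binds microtubules, ran from 5.88 to 7.52 with a median of 6.40 at 5% and from 3.78 to 5.05 with a median of 4.50 at 14%, with no overlap, and rose by 2.16 ± 0.27 (limma adjusted p = 0.00145). The tetraspanin Cd63 of lysosomes and exosomes ran from 4.93 to 7.42 against 3.61 to 4.55 and rose by 2.05 ± 0.29 (adjusted p = 0.00317). App, the amyloid precursor protein gene, ran from 9.05 to 10.46 against 7.66 to 8.80 and rose by 1.52 ± 0.20 (adjusted p = 0.00206). All 3 separated the groups without overlap. The laminin receptor subunit Itga6 rose by 2.11 ± 0.35 and the keratin Krt23 by 2.56 ± 0.47, both with some overlap. Serpina7, which carries thyroid hormone in blood, rose by 1.5 ± 0.26, the protease Corin by 1.45 ± 0.28, the carrier-like Slc35f2 by 1.77 ± 0.29 and the predicted gene Gm19619 by 1.43 ± 0.21. Of these, Krt23 did not pass without 14/57/29 mouse 438 and Corin did not pass in 6 of the 16 fits that left out a mouse. At 14% protein Slc35f2 was 3.13 in 14/29/57 mouse 201 and at most 1.53 in the other mice. The latter values lay under the array medians of 1.62 to 1.73, so the size of the Slc35f2 rise is uncertain.

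The widest fall was that of Orm1, which encodes the acute phase plasma protein orosomucoid. It ran from 3.90 to 9.65 with a median of 6.22 at 5% and from 8.56 to 10.51 with a median of 9.88 at 14%. Mouse 127 was the one 5% mouse within the range of the 14% group. Orm1 fell by 3.48 on the log2 scale (SE 0.58), 11.2-fold (limma adjusted p = 0.00793). It has near-identical relatives, so its probe set may read more than 1 of them. Orm2 and the serum amyloid gene Saa2 differed by -1.94 and -2.69, and neither passed (adjusted p = 0.138 and 0.0679). Of 25 acute phase genes tested 1 fell and 0 rose, with a median difference of -0.04.

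C9, the last component of the complement membrane attack complex, ran from 6.06 to 10.21 with a median of 7.63 at 5% and from 9.25 to 10.94 with a median of 10.31 at 14%, and fell by 2.62 (SE 0.50; adjusted p = 0.0218). It was the 1 gene of 26 for complement and coagulation that fell, and 0 rose. The median of that list was -0.16, with 23 of 26 differences below 0, and it was -0.09 with the array interquartile range in the fit.

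Among enzymes of amino acid breakdown the calls were all falls. Of 40 tested genes for amino acid catabolism 5 fell and 0 rose, 36 differences were below 0, and the median was -0.39 against 0.01 over all genes. Hal, which opens the breakdown of histidine, ran from 8.40 to 9.80 with a median of 9.06 at 5% and from 10.05 to 10.30 with a median of 10.16 at 14%. Its groups did not overlap, and the 6 mice at 14% lay close together. Hal fell by 1.10 (SE 0.19; limma adjusted p = 0.00952). Haao of tryptophan breakdown fell by 0.80, the glyoxylate aminotransferase Agxt by 0.83, Gnmt, which disposes of excess methyl groups, by 0.78 and Hgd of tyrosine breakdown by 0.46 (adjusted p = 0.00442, 0.00781, 0.0498 and 0.0389). Gnmt and Hgd lost their call in 12 and 11 of the 16 fits without 1 mouse, whereas Hal, Haao and Agxt kept theirs in all 16.

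In the urea cycle 1 of 8 genes fell, Arg1, which releases urea from arginine, by 0.72 (SE 0.14; adjusted p = 0.0295), and 7 of 8 differences were below 0 with a median of -0.43. Arg1 lost its call in 10 of the 16 fits. Cps1, which brings ammonia into the cycle, stood at 11.44 ± 0.42 (SD, n = 10) at 5% and 11.86 ± 0.14 (SD, n = 6) at 14%, a difference of -0.55 that did not pass (adjusted p = 0.0696), and Asl, which splits argininosuccinate, differed by -0.73 (adjusted p = 0.0604). None of 21 genes for branched-chain amino acid catabolism passed, and their median was -0.22, or -0.07 with the array interquartile range in the fit.

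**Figure D3:**
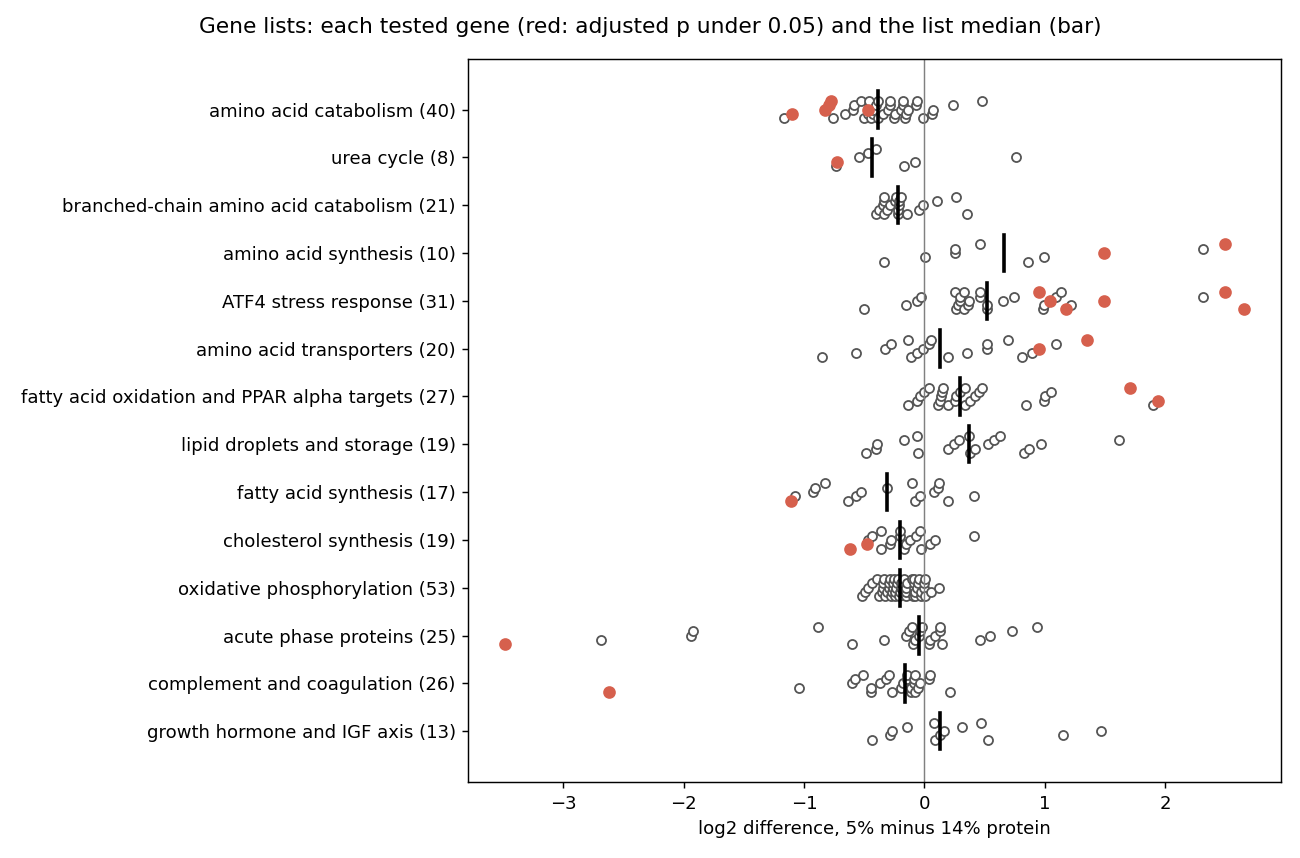
Log2 difference between 5% and 14% protein for every tested gene of 14 lists, with the number of genes in brackets, filled red where the adjusted p was under 0.05, and a bar at the list median. The amino acid catabolism genes lie mostly left of 0 (median -0.39) and the ATF4 genes mostly right of it (median 0.52).

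Several lipid and intermediary genes fell. Acss2, which makes acetyl-CoA from acetate, ran from 7.47 to 8.84 with a median of 7.94 at 5% and from 8.43 to 9.60 with a median of 9.06 at 14%, and fell by 1.11 (SE 0.15; limma adjusted p = 0.00317). It was the 1 gene of 17 for fatty acid synthesis that fell, and 0 rose. The median of that list was -0.31. Srebf1, Fasn and Scd1, the central regulator and 2 main enzymes of the pathway, differed by -0.63, -0.53 and -0.92 and did not pass (adjusted p = 0.085, 0.289 and 0.12). In cholesterol synthesis 2 of 19 genes fell, Tm7sf2 and Ebp, by 0.62 and 0.48, and both lost their call in 12 of the 16 fits without 1 mouse.

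Of 27 tested PPAR alpha targets and other genes of fat oxidation 2 rose and 0 fell, and 23 differences were above 0 with a median of 0.30. The mitochondrial thioesterase Acot2 rose by 1.94 ± 0.37 and the omega-hydroxylase Cyp4a31, which has close relatives in its family, by 1.71 ± 0.30 (adjusted p = 0.0237 and 0.0131). Cpt1a, the gate for fatty acids into mitochondria, differed by 0.38 and did not pass (adjusted p = 0.241). Cyp39a1, a hydroxylase of bile acid precursors, rose by 1.24 ± 0.19 with no overlap, from 6.57 to 8.34 at 14% to 8.44 to 9.35 at 5% (adjusted p = 0.00527). It was named after its values were seen.

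Further falls were those of Nnmt, Slc10a2, Acpp, Ces3b and Bdh2. Nnmt, which methylates nicotinamide and so uses up methyl groups, ran from 2.13 to 6.68 with a median of 2.95 at 5% and from 4.08 to 6.91 with a median of 6.01 at 14%. It fell by 2.74 (SE 0.58; limma adjusted p = 0.0408) and lost its call in 11 of the 16 fits without 1 mouse. Slc10a2, the bile acid uptake carrier of ileum and bile ducts, ran from 2.35 to 5.90 against 6.15 to 8.21 with no overlap, and fell by 2.98 (SE 0.52; adjusted p = 0.0117), a call lost without 14/57/29 mouse 438.

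The phosphatase gene Acpp ran from 1.51 to 4.62 with a median of 2.43 at 5% and from 4.37 to 6.37 with a median of 5.08 at 14%, where mouse 127 alone overlapped, and fell by 2.70 (SE 0.41; adjusted p = 0.00525). The carboxylesterase gene Ces3b, a member of a family of close relatives, fell by 2.72 and the dehydrogenase gene Bdh2 by 2.14 (adjusted p = 0.0243 and 0.00713). The succinate receptor Sucnr1 fell by 1.34, the uridine phosphorylase Upp2 by 1.43 and the predicted gene Gm11437 by 1.25. Smaller falls were those of 1810046K07Rik by 0.98, the Rac exchange factor Tiam2 by 0.97 and Wfdc21 by 0.94.

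Several other lists held no called gene. Over all genes tested 0.248% rose and 0.201% fell, so 0 calls in such short lists does not show that their genes were unchanged. None passed of 13 genes of the growth hormone and IGF axis, 16 p53 targets, 19 lipid droplet genes, 21 genes of endoplasmic reticulum stress, 23 of xenobiotic metabolism, 16 of the circadian clock, 17 of the cell cycle, 16 of NRF2 and glutathione, 16 interferon-stimulated genes and 18 of bile acid synthesis and transport. The bile acid list did not hold Slc10a2 or Cyp39a1, which passed (above), so its count does not cover all bile acid genes. Lipid droplet genes had a median of 0.37 (13 differences above 0, 6 below), xenobiotic genes 0.27 (16 and 7) and cell cycle genes 0.19 (15 and 2). With the array range in the fit those medians were 0.15, -0.05 and 0.10. Igfbp1, which binds IGF1 and is induced by ATF4, stood at 10.90 ± 0.53 (SD, n = 10) against 9.44 ± 0.92 (SD, n = 6), a difference of 1.46 ± 0.33 that narrowly missed (limma adjusted p = 0.0576). Igf1 and its upstream receptor Ghr differed by -0.29 and -0.43 (adjusted p = 0.259 and 0.11). Of 53 genes of oxidative phosphorylation none passed, although 48 differences were below 0 with a median of -0.20, and that median was 0.02 with the array range in the fit. The gluconeogenic enzyme Pck1 differed by 0.10 (adjusted p = 0.533), and the cell cycle inhibitor Cdkn1a by 1.46 ± 0.48 (adjusted p = 0.144). Pck2 was the 1 gene that rose among 17 for gluconeogenesis and glycolysis, and Nnmt the 1 that fell among 13 for nicotinamide and NAD.

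Markers of other cells were read beside these results. Hepatocyte markers averaged 12.00 to 12.18 at 5% and 12.10 to 12.18 at 14%, and none of 9 passed. All 19 stellate cell and fibrosis markers and all 12 endothelial markers had differences above 0 with medians of 0.39 each, and none passed. Their mean levels ran from 4.66 to 6.12 at 5% against 4.48 to 5.02 at 14% for stellate markers and from 5.75 to 6.92 against 5.73 to 6.43 for endothelial ones. With the array range in the fit those medians were 0.17 and -0.07. Macrophage markers averaged 4.53 to 6.19 against 4.67 to 6.82, and none of 17 passed. Their differences were above 0 for 14 and below for 3, with a median of 0.18, or -0.51 with the array range in the fit. Of the adipocyte markers Adipoq and Lep lay below the level filter, and of 4 tested Retn fell by 0.45 at a low level of 1.17 ± 0.13 (SD, n = 10) against 1.61 ± 0.17 (SD, n = 6). None passed among 7 neutrophil, 13 T and NK cell, 7 B and plasma cell, 7 cholangiocyte, 9 skeletal muscle and 1 erythroid markers. In whole liver fewer cells of a type and less RNA per cell cannot be told apart, and the part of these markers in the gene differences was not tested.

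Liver genes known to be higher in males had a median difference of -0.97 over 18 and those higher in females 0.17 over 17, and none passed. With the array range in the fit these medians were 0.76 and -1.33, and 2 of the 17 genes higher in females, A1bg and Prom1, then passed as lower at 5% (-7.31 and -2.13; named after their values were seen). The female-biased cytochromes Cyp2b13 and Cyp2b9 differed by 3.55 ± 1.30 and 3.07 ± 1.08 and did not pass (limma adjusted p = 0.182 and 0.169). These pooled values hide a split by sex marker. With Y-linked genes above Xist the group means differed by 5.79 and 5.57 (n = 6 and 3). With Xist above they differed by 1.03 and 0.17 (n = 4 and 3). The split itself was not tested. With the sex marker in the fit 211 of 16926 genes passed, 129 higher and 82 lower, and all 76 genes were among them. Of 40 amino acid catabolism genes 10 then fell, against 5 without the marker, and of 31 ATF4 genes 8 rose, against 6. Calls over all genes rose from 76 to 211 as well, so these counts do not show a change particular to the 2 lists.

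With the array interquartile range as a covariate the sex markers no longer balanced between the protein groups. The fitted median of the 3 Y-linked genes went from 0.08 to 2.49 and Xist from -0.04 to -4.71. Every value of this fit with the range alone therefore sets groups of unlike sex markers against each other. In that fit 26 genes passed (0.154% of 16926), 12 higher and 14 lower, and 13 of them were among the 76. All 76 kept their direction, and their difference with the term was a median of 0.832 times that without it. Fgf21 (2.32 ± 0.44), Lepr (2.21 ± 0.42), Psat1 (3.24 ± 0.57), Mthfd2 (2.08 ± 0.37), Arhgef2 (1.77 ± 0.33), Atf5 (1.02 ± 0.18), Slc7a7 (1.58 ± 0.26), Pck2, Chchd10 and Ptbp2 (a splicing regulator named after its values were seen) stayed past the threshold upward, and Acpp (-3.77 ± 0.40), Acss2 (-1.11 ± 0.21) and Gm11437 (-1.69 ± 0.27) downward. Orm1 had nearly the same difference with the term, -3.41, but a wider error of 0.78, and it did not pass (adjusted p = 0.0994). Hal at -1.17 and Haao at -0.58 did not pass either (adjusted p = 0.076 and 0.122). Slc10a2, Ces3b, C9, Bdh2 and Acot2 shrank to -2.05, -1.53, -1.93, -1.38 and 0.93. None of the amino acid catabolism genes passed in that fit, while 5 ATF4 genes did. The array range moved with protein, and which of them the lost calls followed was not tested. With range and sex marker together 4 genes passed, 3 of them among the 76. In that fit Fgf21 differed by 2.16 and Lepr by 2.40, and neither passed (adjusted p = 0.299 and 0.182), while Acpp at -4.03 did.

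**Figure D4:**
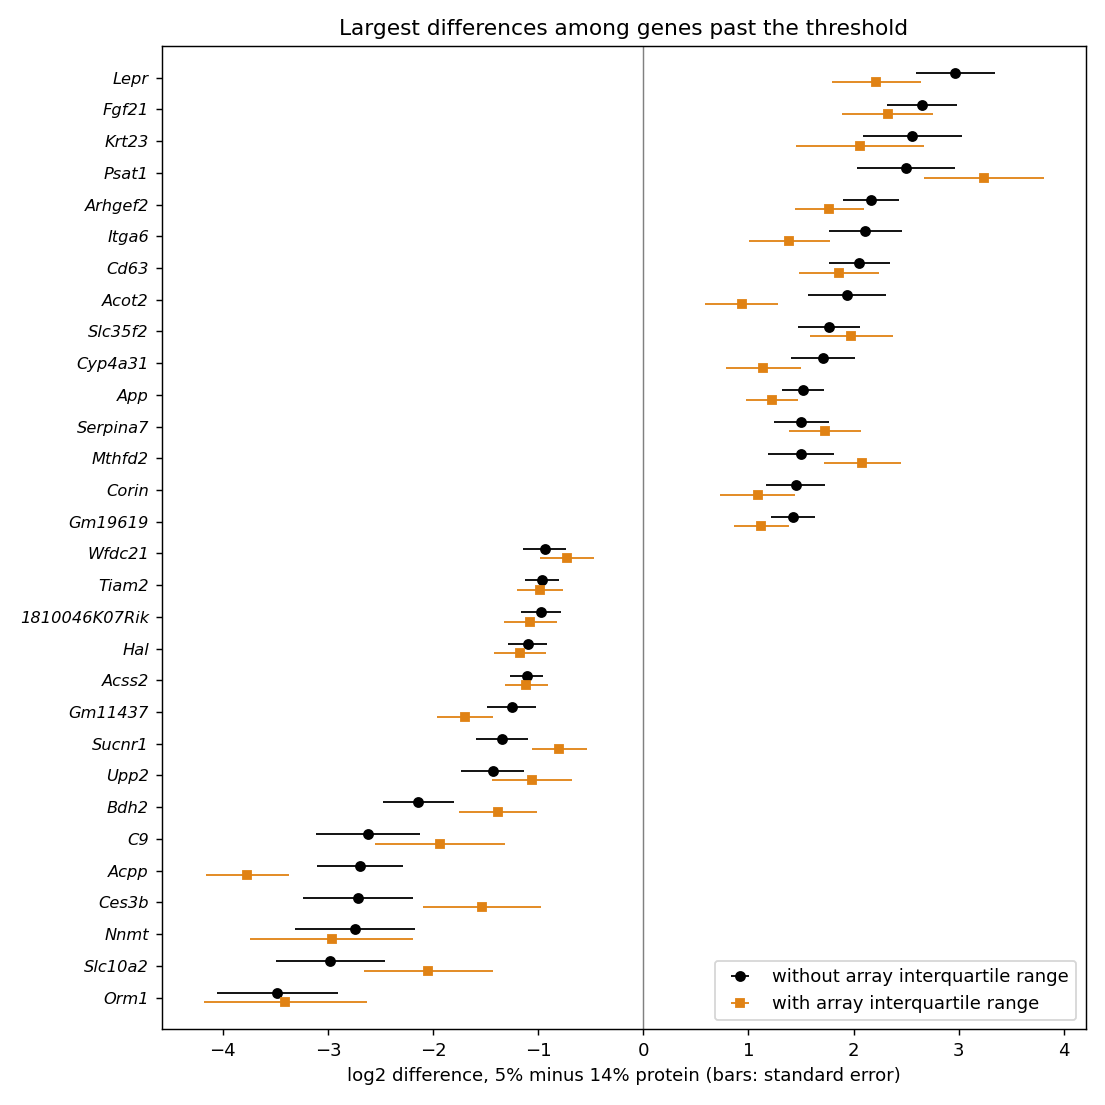
Log2 difference between 5% and 14% protein with its standard error for the 15 largest rises and 15 largest falls among genes past the threshold, without (black) and with (orange) the array interquartile range in the fit. All 30 keep their side of 0, and Acot2, Itga6, Ces3b and Slc10a2 move toward 0 with the term while Psat1 and Acpp move away from it.

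Whether the genes step at 5% or follow protein over its whole range was asked in the 13 high energy mice at 23%, 33%, 42% and 60% protein, which had no part in the comparison above. In those mice the protein slope was below 0 for 23 of the 42 genes that rose at 5% and above 0 for 21 of the 34 that fell. Over all 16926 genes it was below 0 for 8429 and above 0 for 8497. Of the 76 genes 2 (2.63%), Acpp and Cyp4a31, had an unadjusted p under 0.05 for that slope, against 3.69% of all 16926. With 13 mice, 1 of them at 42% and 3 at 60%, modest slopes can go undetected. A gene without a small p may therefore still slope. Cyp4a31 sloped upward there, by 0.31 ± 0.10 (SE) for each 10 points of protein, against its rise at 5%. After adjustment 3 genes passed over 23% to 60% (0.0177%), Csad, Slc43a1 and Sult1e1, and none of them was among the 76. Csad, which makes taurine precursors, fell by 0.92 for each 10 points, whereas between 5% and 14% it differed by 0.48 and did not pass (limma adjusted p = 0.502).

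The mean of these 13 mice lay on the 14% side of the midpoint between the 2 groups for all 42 genes that rose. It did so for 31 of the 34 that fell, the exceptions being Chrna4, Gm3993 and Slc10a2. Every one of the 13 mice lay on that side for 16 of the 42 and 12 of the 34. At 60% alone the mean lay on the 14% side for 37 of the 42 and 30 of the 34. The exceptions there were Ctps, Cyp39a1, Krt23, Slc35f2 and Utp4 of the genes that rose, and Chrna4, Gm3993, Slc10a2 and Sowahd of those that fell. In the 1 mouse at 42% the counts were 38 and 31. Arhgef2 stood between 3.00 and 4.24 in the 13 mice, below its lowest 5% value of 5.88. Fgf21 stood between 3.16 and 6.80 and Lepr between 3.47 and 7.43, where the 1 mouse at 60% with 7.43 reached the 5% range. Orm1 stood between 9.12 and 11.75 and Hal between 9.50 and 10.42. Nnmt stood between 5.52 and 7.91, and its mean of 6.92 was above the 5.79 at 14%. The lowest Orm1, Hal and Nnmt values of these mice lay within the 5% ranges, which reached up to 9.65, 9.80 and 6.68. Slc10a2 was wide, from 2.91 to 8.0. Fgf21 in the 3 medium energy mice at 14% protein was 3.65, 5.49 and 5.69, and Lepr was 5.62, 5.68 and 7.87. Hal in those mice ran from 8.06 to 10.04 and Arhgef2 from 3.90 to 6.73; the lowest Hal value was below the 5% range and the highest Arhgef2 value within it.

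**Figure D5:**
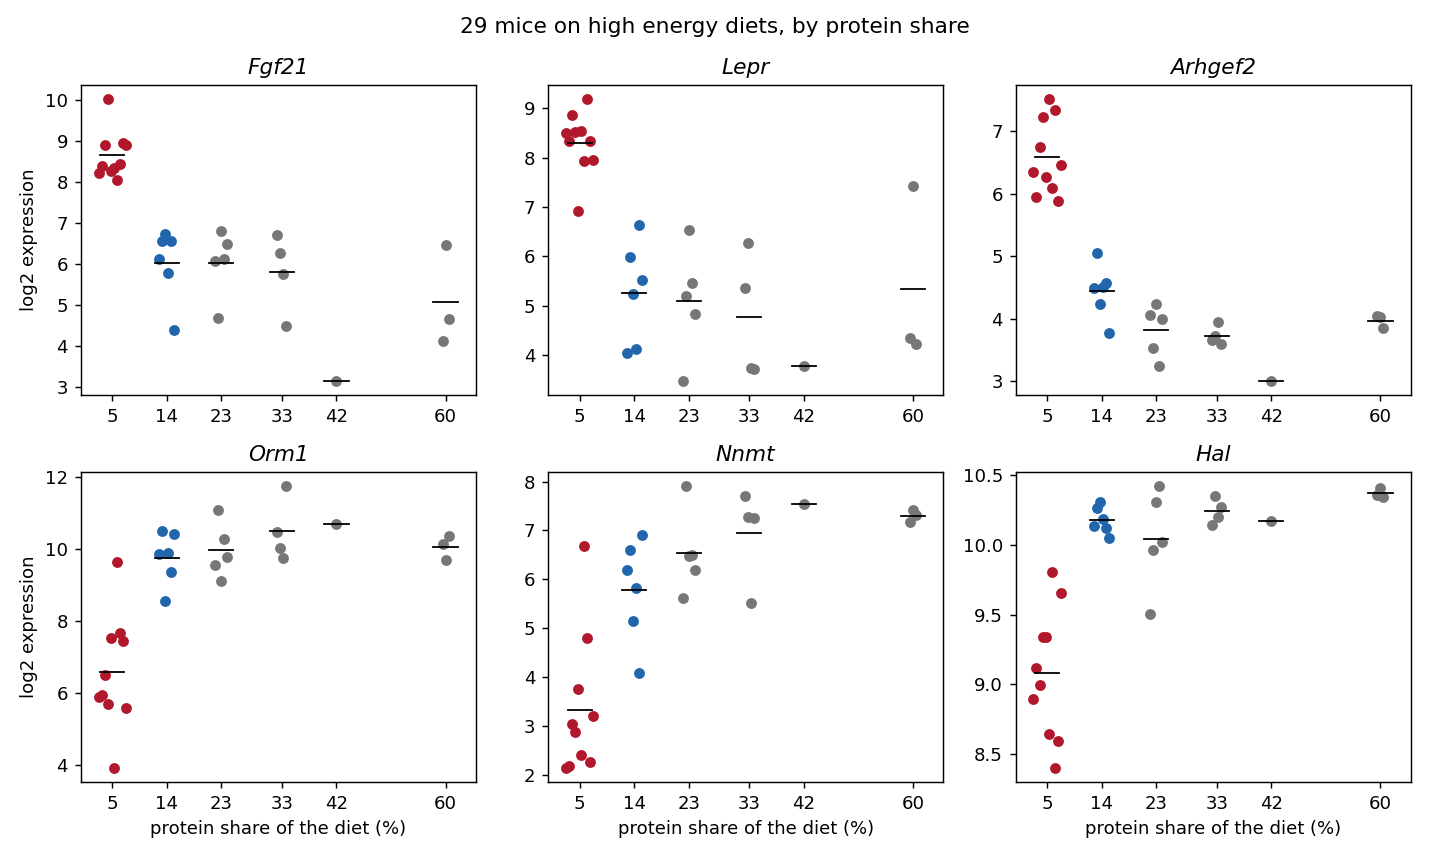
Log2 expression of 6 genes in all 29 high energy mice against the protein share of the diet, with 1 point per mouse and a line at each mean. Fgf21, Lepr and Arhgef2 are high and Orm1, Nnmt and Hal low at 5% (red), and the mean of the 13 mice at 23% to 60% (grey) lies on the side of the 14% mice (blue) in all 6.

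A fit to all 29 high energy mice then gave the step at 5% beyond a straight line in protein over 14% to 60%. It called 66 genes above the line at 5% (0.390% of 16926) and 42 below it (0.248%). The largest steps upward were Lepr at 3.19 ± 0.51, Psat1 at 2.43 ± 0.36, Arhgef2 at 2.35 ± 0.26, Fgf21 at 2.31 ± 0.44, Krt23 at 2.29, Cyp4a31 at 2.22, Cd63 at 2.14 and Itga6 at 2.06. Those downward were Orm1 at -3.37 ± 0.51, Slc10a2 at -2.84 ± 0.69, Nnmt at -2.49, Acpp at -2.35, C9 at -2.23, Ces3b at -2.20, Bdh2 at -1.98 and the water channel Aqp8 at -1.61. Of these 16, Aqp8 had not passed between 5% and 14% (-1.40, limma adjusted p = 0.0533). In this fit 9 ATF4 genes stood above the line and 3 genes of amino acid catabolism below it. The step fit and the first comparison share their 5% and 14% mice, so one does not support the other. The calls depended on the shape of the line. With log2 of the protein share in place of the share, 0 genes passed by limma (1110 at an unadjusted p under 0.05). Without 60/20/20 mouse 126, 60/20/20 mouse 125 or 14/29/57 mouse 402 the step called 48, 69 and 60 genes, and without 14/57/29 mouse 138 it called 174. With the array range in the fit 91 genes passed, 37.4% of them above the line against 61.1%, and 26 of the 108 genes were among them. The balance of sex markers in this step fit with the range was not examined.

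No dependence of the protein difference on the exchange of carbohydrate for fat was detectable in 16 mice. Of 16926 genes 0 had an interaction past the threshold by limma, and 644 had an unadjusted p under 0.05. The smallest p was that of Bcl6, a repressor of growth hormone targets, whose interaction of -0.57 for each 10 points did not pass (adjusted p = 0.48), followed by Sapcd1, Plin1, Adam11 and Reep1. Without the 14/57/29 mouse 138, 14 genes passed, and that diet was then held by 1 mouse. Fgf21 differed by 3.10 between 5/75/20 and 14/57/29 and by 2.0 between 5/20/75 and 14/29/57, Lepr by 2.28 and 3.57, and Nnmt by -1.26 and -3.78, on 4 against 2 and 2 against 4 mice. The interaction did not pass for any of the 3.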

How the data were processed

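Total RNA from 1 liver per array was extracted with the Qiagen AllPrep kit and hybridized as biotin-labelled RNA to Affymetrix arrays, per the labels' protocols. The authors deposited 1 value for each of 41345 probe sets, from -0.51 to 13.42, read here as log2 expression from the range of the values. Background correction, normalization and software are not given in the sources used here. The platform annotation named 23521 probe sets by 1 gene and 1814 by several, which were not used, and did not list 16010. Of 22180 genes, each was represented by its probe set of highest mean over 48 arrays, and the 16926 genes whose mean exceeded the 30th percentile of probe set means were tested. Replicates are separate mice.

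Linear models were fitted in R 4.3.3 by limma 3.58.1 with a mean-variance trend, two-sided, with Benjamini-Hochberg adjustment over all genes tested at 0.05, and were tested on simulated data. The covariate was carbohydrate minus fat per 10 points. The step fit added the protein share as a line over 29 mice, and the slope fit used the 13 mice at 23% to 60%. Single array measures were compared by exact permutation in scipy 1.17.1. Tried as alternatives were other filters, covariates, normalizations and probe set rules, array weights, subsets of mice, a log2 protein line, and the omission of each mouse in turn.

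The mice were chosen by diet label. The gene lists and their members, the motif and the naming rule were chosen with earlier results of these data known. Named genes are the 15 largest rises and 15 largest falls that passed, up to 4 members of smallest p of each list, a fixed set of 21 genes, the 8 largest steps each way and the 5 smallest p of the interaction. Genes outside this rule are named as such or stand in a count of 5 or fewer. Promoters are RefSeq sequences.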

Additional observations from a re-analysis of the deposited data

Results flagged for a closer look

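In 94 groups of values, 46 genes and the array range at each protein share, 5 had a mouse far from the others of its group by Dixon's criterion, which chance alone gives in about 1 of 20 groups. Fgf21 at 5% protein was 10.01 in the 5/48/48 mouse 199, with the nearest mouse at 8.95. The gluconeogenic gene Pck1 at 5% was 11.86 in the 5/75/20 mouse 160, with the nearest at 12.18. Tiam2 at 5% was 2.73 in the 5/75/20 mouse 127, with the nearest at 2.17. At 14% protein the cell cycle inhibitor Cdkn1a was 5.22 in the 14/57/29 mouse 438, with the nearest at 8.47, and Slc35f2 was 3.13 in the 14/29/57 mouse 201, with the nearest at 1.53. The causes were not tested.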

How the results depend on the processing

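Counts are genes past the threshold. The 76 genes of the first comparison became 4 with array range and sex marker, 26 with array range, 211 with sex marker, 13 without the 5/48/48 mice and 0 with mouse numbers under 300 alone (limma; 1490 at an unadjusted p under 0.05), the last 2 on fewer mice. The other alternatives gave 70 to 104, and leaving out 1 mouse gave 39 to 241. The 108 steps became 191 with array weights, 325 with sex marker, 260 with both covariates, 72 with an indicator for mouse numbers over 300 and 0 with log2 protein, and leaving out 1 mouse gave 48 to 174. The 3 slopes became 0 with that indicator (limma; 567 at an unadjusted p under 0.05) and 0 to 3 without 1 mouse. Interactions were 0 under every alternative but the omission of 1 mouse, which gave 0 to 14. The array range difference of 0.23 was 0.19 to 0.27 without 1 mouse. No named gene that passed reversed its sign under any alternative.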

Other observations

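Genes that fell or rose at 5% protein in high energy mice were also read in the 3 medium energy mice at 14% protein. Their mean lay on the 14% side of the midpoint for 30 of the 42 genes that rose and for 14 of the 34 that fell. Among the genes on the other side were Mthfd2, Pck2, Slc3a2 and Slc7a7 of those that rose, and Hal, Haao, Agxt, Gnmt and Hgd of amino acid breakdown and Acss2, C9 and Ces3b of those that fell. These 3 mice ate 14/29/57 or 14/57/29, the same mixes as the 14% high energy mice, at a lower energy level. The difference between energy levels was not tested.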
